A study of Mus musculus with 24 samples.

Results

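Batf3 and 9 genes tied to it by family, by partnership or by cell lineage were followed in the hippocampus of Aged mice: its paralogs Batf and Batf2, the interferon regulatory factors Irf4 and Irf8, the dendritic lineage genes Flt3 and Zbtb46, and the surface genes Clec9a, Xcr1 and Itgae of type 1 dendritic cells. The 10 genes were taken by symbol from the 49568 symbols listed in each library, and all 10 were found. The set was chosen by the counts of Batf3, which separated WT enriched mice from WT standard-housed and from MSK1 KD enriched mice, so the values of Batf3 in those comparisons are given as a description.

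Poly(A) RNA was sequenced from 24 hippocampi, each from 1 naive male mouse of C57-Bl/6J background aged 21 to 23 months. WTSH mice were wild type (WT) in standard housing (SH). WTEE mice were WT and lived from 18 months until sampling with environmental enrichment (EE). They were kept in rat cages of larger size that held toys and a wheel for running, with more males per cage than in SH. Which mice shared a cage was not given, so cage effects cannot be told apart from group differences. KDSH and KDEE mice were the same housing groups of MSK1 KD mice, which carry a knock-in point mutation that removes the N-terminal kinase activity of MSK1 in every cell and were bred as a homozygous line apart from the WT line, so that genotype and line cannot be told apart. Of WTSH, samples 4 and 7 were not used by the study, nor was sample 6 of KDSH, so 21 libraries were analysed (4 WTSH, 6 WTEE, 5 KDSH and 6 KDEE) and the other 3 are shown apart.

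BATF proteins are small AP-1 factors that pair with JUN proteins and, through them, join IRF4 or IRF8 on composite DNA elements. In immune tissue BATF3 and IRF8 are needed for type 1 conventional dendritic cells, which take up dead cells through CLEC9A, follow XCL1 through XCR1 and carry the integrin chain CD103 (Itgae), while FLT3 is the receptor for the growth factor of all dendritic cells and ZBTB46 marks classical dendritic cells and endothelium. In the brain such cells sit mainly in the meninges and choroid plexus, and microglia, the resident macrophages, also express Irf8.

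Depth over the 21 libraries ran from 27410239 to 71907130 read pairs on genes (median 47549989), with WTEE deepest at a median of 56016403, and no library repeated another. Levels are given as normalized counts, the read count scaled to the mean library after TMM normalization, and for the 3 libraries left out on the scale of all 24. These 3 had 25.8% to 50.2% of read pairs not assigned to a single gene (on no gene or on several), against 13.1% to 21.3% in the others. They had 5.55% to 23.1% of counts on ribosomal RNA related gene models, against at most 2.57%. These models, called ribosomal RNA gene models below, include Lars2 and Mir6236. Rps6ka5, the MSK1 gene, had group means between 1043 and 1158 normalized counts, which does not check the genotype labels, since the allele is a point mutation. Since the tissue is bulk hippocampus, fewer cells of a type and less RNA per cell cannot be told apart.

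Compared per length, the 10 genes fell into 3 levels. Flt3 had a median of 1.70 FPKM over the 21 libraries (range 1.32 to 2.04), Irf8 1.14 (0.811 to 1.46), Zbtb46 1.13 (0.904 to 1.42) and Batf3 0.629 (0.414 to 1.46). The ranges of these 4 genes touch, and 27.6% of the 19459 tested genes with a length had a lower median than Batf3. Clec9a followed at 0.155 FPKM, and Batf, Batf2, Irf4 and Itgae lay between 0.0831 and 0.0886 FPKM, levels that do not differ beyond their spread. Xcr1 was the lowest at 0.00537 FPKM.

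Xcr1, the chemokine receptor that defines type 1 dendritic cells, had 0 to 6 reads in a library and 0 in 6 of the 21 libraries, so a count of up to 3 reads cannot be told from 0 there. Its group means were 1.73, 1.61, 1.20 and 1.70 normalized counts in WTSH, WTEE, KDSH and KDEE. It was the only one of the 10 genes that did not pass the filter on low counts, and 9 of 10 were tested. Of 13 further type 1 dendritic markers, 9 passed the filter, and Gcsam was at 0 in WTEE and KDSH and Il12b in WTSH. Xcr1 was thus at or near 0, while Clec9a had 9 to 36 reads and Itgae 9 to 33 in every library.

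Batf3 lies on chromosome 1 of GRCm38 from 191097847 to 191108945 on the plus strand and shares no exon base with another gene. Irf4 lies on chromosome 13 from 30749226 to 30766976, also on the plus strand and with no shared exon bases. The promoter windows of both genes (300 bases around the RefSeq start, build GRCm38.p6) are shown because in both every WTEE library lay above the WTSH and KDEE libraries, and capitals mark the GC box GGGCGG on either strand.
Batf3, chr1:191098164-191098463, plus strand: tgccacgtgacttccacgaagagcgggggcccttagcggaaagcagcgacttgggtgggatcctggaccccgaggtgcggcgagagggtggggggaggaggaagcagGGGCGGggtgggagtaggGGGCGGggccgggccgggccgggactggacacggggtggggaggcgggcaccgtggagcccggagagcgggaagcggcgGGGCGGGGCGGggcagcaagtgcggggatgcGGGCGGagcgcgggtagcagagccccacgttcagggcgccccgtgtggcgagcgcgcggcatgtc
Irf4, chr13:30748983-30749282, plus strand: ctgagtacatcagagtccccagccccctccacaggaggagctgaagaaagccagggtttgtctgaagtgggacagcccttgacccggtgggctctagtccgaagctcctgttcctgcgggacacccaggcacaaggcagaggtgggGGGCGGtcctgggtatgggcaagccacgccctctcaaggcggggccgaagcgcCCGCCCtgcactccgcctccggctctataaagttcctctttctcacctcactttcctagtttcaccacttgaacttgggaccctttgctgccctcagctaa
The Batf3 window is 75.7% GC, and only 3.34% of the 32851 windows of all genes reach that value (median 52.7%). It holds 5 GC boxes, a pair of which overlap by a base, and the Irf4 window, at 61.0% GC, holds 2; 35.7% of all windows hold at least 1. The cyclic AMP response element TGACGTCA (1.79% of windows), its core TGACG (20.8%) and the AP-1 element TGAGTCA (5.2%), each searched on both strands, were in neither window, and the E-box CACGTG (7.15%) occurs once, in the Batf3 window. The matches describe these letters only.

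Batf3 had 55.2, 31.8, 37.1 and 48.1 normalized counts in WTSH samples 2, 5, 19 and 23, and 66.8 (lowest), 74.4 (median) and 112 (highest) in the 6 WTEE libraries. KDSH samples 1, 3, 8, 18 and 24 had 41.4, 41.9, 40.7, 46.7 and 42.3, and KDEE had 35.9, 49.8 and 58.5 as the lowest, median and highest. Every WTEE library was above every library of the other 3 groups. The WTEE mean of 80.3 ± 17.3 (SD, n = 6) stood beside 43.1 ± 10.6 in WTSH (SD, n = 4) and 48.2 ± 7.73 in KDEE (SD, n = 6), a fitted fold of 1.87 and of 1.66. The libraries left out had 39.2, 32.9 and 37.7 (WTSH 4 and 7, KDSH 6), within or below the SH groups, from 10, 12 and 30 reads.

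Batf3 differed little between KDEE and KDSH and between KDSH and WTSH. The KDEE and WTSH libraries also entered the choice of Batf3, so the p and intervals here are not free of that choice. Between KDEE and KDSH its log2 fold change was 0.18 (SE 0.17, adjusted p = 0.648 by the quasi-likelihood test of edgeR, 95% interval -0.17 to 0.53), and between KDSH and WTSH it was -0.01 (SE 0.19, interval -0.40 to 0.37). The spread between KDSH mice, 2.35 normalized counts (SD, n = 5), was below the 6.83 that counting alone gives at this depth.

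Irf4, which encodes a factor of plasma cells, activated T cells and type 2 dendritic cells and a known partner of BATF proteins, was, like Batf3, higher in every analysed WTEE library than in any WTSH or KDEE library, but unlike Batf3 not than in KDSH. The WTSH libraries had 21.2, 17.9, 17.2 and 14.03 normalized counts (samples 2, 5, 19 and 23), and the 6 WTEE libraries 23.2, 23.9 and 29.9 as the lowest, median and highest. KDEE had 12.3, 16.6 and 22.4, and KDSH samples 1, 3, 8, 18 and 24 had 12.6, 18.6, 19.9, 21.9 and 31.7. No WTSH or KDEE library reached the lowest WTEE library, while KDSH overlapped with all groups, its sample 24 being the highest of the 21 libraries.

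**Figure D1:**
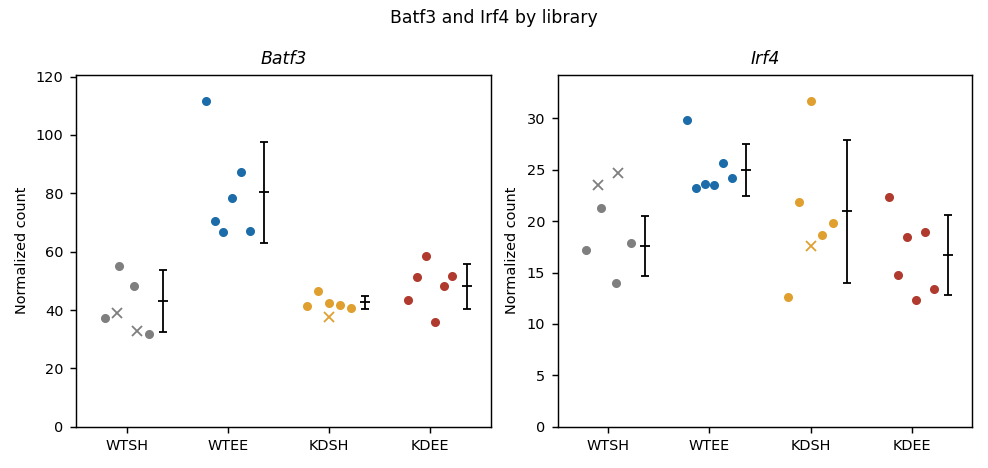
Normalized counts (y axis) of Batf3 and Irf4 in each library of the 4 groups (x axis). Points are libraries, bars to the right of each group are the mean ± SD, and crosses are the 3 libraries left out, scaled with all 24. All WTEE points lie above the WTSH and KDEE points in both panels, and for Irf4 the crosses of WTSH, at 23.5 and 24.6, reach the WTEE range.

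The log2 fold change of Irf4 was 0.51 between WTEE and WTSH (SE 0.22, unadjusted p = 0.0308, adjusted p = 0.651 from edgeR) and 0.59 between WTEE and KDEE (SE 0.20, unadjusted p = 0.00687, adjusted p = 0.458). Neither passed the test across all genes. The exact two-sided permutation tests of the single gene gave 0.00476 and 0.00216, the smallest p these group sizes allow, as for any gene whose groups do not overlap, which holds for 0.481% of the 20187 tested genes in the first comparison and 0.52% in the second with WTEE higher. Since both comparisons share the WTEE libraries, they are not separate tests. Between KDEE and KDSH the log2 fold change was -0.34 (SE 0.21, adjusted p = 0.509), and the difference between the enrichment effects of the genotypes was 0.84 (SE 0.30, unadjusted p = 0.0115, adjusted p = 0.91).

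Both conditions, every WTEE library above every WTSH and above every KDEE library, were met by 7 of the 20187 genes (0.0347%). Besides Batf3 and Irf4 these were Mettl6, which encodes a transfer RNA methyltransferase, and the Gm17137, Gm20678, Gm37906 and Gm38377 gene models, all named after their values were seen. The set was chosen because Batf3 met both conditions, so its place among the 7 is a description. Batf3 was the only one of the 7 in which WTEE also lay above every KDSH library. In the libraries left out Batf3 reached at most 39.2 normalized counts, below the lowest WTEE library on the same scale (65.4), whereas the other 6 genes reached or passed theirs. For Irf4 the left-out WTSH samples 4 and 7 had 23.5 and 24.6, from 6 and 9 reads, against a lowest WTEE value of 22.7, so the groups overlap with all 24 libraries, where WTEE against WTSH gave a log2 fold change of 0.38.

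Irf4 rested on 11 to 35 reads per library. The SD of WTEE, 2.54, was smaller than the 4.72 that counting error alone gives, and that of WTSH, 2.96, was also below its counting error of 4.18, and the nearest libraries of these groups, at 23.2 and 21.2, lie closer to each other than that error. Of 7 tested markers of B and plasma cells, in which Irf4 is active, 0 were called. At an unadjusted p under 0.05, 3 (Ighm, Igkc and Cd79b) were higher in WTEE than in WTSH (3.95% of tested genes in that direction) and 2 (Ighm and Igkc) were higher in KDEE than in KDSH (5.64%), while Cd79a, Pax5, Jchain and Mzb1 were in neither count. The summed level of all 9 listed markers, none at 0, was 934 to 1151 normalized counts in WTSH, 1345 to 2020 in WTEE, 900 to 1227 in KDSH and 1337 to 1525 in KDEE. Most of it is Ighm, with means of 941, 1503, 924 and 1290.2. Within groups Irf4 and the mean of these markers had r = 0.38 over 21 libraries (permutation p = 0.0805, adjusted over all genes 0.535, Spearman's rho 0.28, p = 0.247) and r = 0.18 without the 2 libraries farthest out (KDEE 12 and WTEE 10). The part of these cells in the Irf4 values was not tested further.

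The paralogs of Batf3 did not share its pattern. Batf, an AP-1 factor of T and B cells, had 11.7, 10.9, 19.01 and 10.02 normalized counts in WTSH samples 2, 5, 19 and 23 and 5.75, 2.33, 5.22, 5.72 and 5.88 in KDSH samples 1, 3, 8, 18 and 24. Every KDSH library was below every WTSH library, on 2 to 6 reads against 10 to 21. The log2 fold change was -1.35 (SE 0.56, unadjusted p = 0.024, adjusted p = 1 from edgeR; exact two-sided permutation p = 0.00794, the smallest possible), where 0.411% of tested genes had KDSH wholly below WTSH. WTEE ranged from 3.44 to 24.1 (median 7.05) and KDEE from 1.72 to 18.8 (median 6.97), so each enriched group overlapped with WTSH and with KDSH, and KDEE against KDSH gave a log2 fold change of 0.70 (SE 0.55, adjusted p = 0.581).

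The Ttr level, from the transthyretin gene of the choroid plexus, split the 21 libraries into 5 with 2479 to 8911 CPM and 16 with 4.78 to 86.6. The first were WTSH 19, WTEE 10 and 13, and KDEE 12 and 14, and none was KDSH. Batf was at 19.01 in WTSH 19, 24.1 and 8.10 in WTEE 10 and 13, and 18.8 and 10.8 in KDEE 12 and 14. The Ttr-poor libraries of those groups reached at most 11.7, 14.3 and 8.21, so 4 of the 5 Ttr-rich libraries lay above them and WTEE 13 did not. Among the 16 Ttr-poor libraries Batf and Ttr had r = 0.12 within groups (permutation p = 0.586; Spearman's rho 0.15, p = 0.556). The 3 Ttr-poor WTSH libraries were at 10.02 to 11.7, from 10 or 11 reads each, and the KDSH libraries reached 5.88. The part of choroid plexus content in the Batf values was not tested. All 8 choroid plexus markers tested were higher in KDEE than in KDSH at an unadjusted p under 0.05 (5.64% of tested genes in that direction). Their median log2 fold change was 4.26. Between KDSH and WTSH 4 of the 8 reached that p, all lower in KDSH (1% of tested genes in either direction). The median of the 8 there was -3.43, and 0 were called in either comparison.

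Batf2, an interferon-induced member of the family, had means of 8.86 ± 4.93 (WTSH, SD, n = 4), 10.7 ± 3.81 (WTEE, n = 6), 12.2 ± 6.75 (KDSH, n = 5) and 11.5 ± 4.52 (KDEE, n = 6). Its groups overlapped in all comparisons, and its log2 fold changes lay between -0.10 and 0.47, each with a 95% interval that includes 0. KDSH sample 8, with 24.03 normalized counts, was the highest library. Of its exon bases 2.02% are shared with Arl2, and without strand those reads cannot be assigned.

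Irf8, the partner of BATF3 in type 1 dendritic cells, did not separate the groups. The means were 358 ± 45.9 (WTSH, SD, n = 4), 399 ± 55.2 (WTEE, n = 6), 386 ± 68.7 (KDSH, n = 5) and 413 ± 64.7 (KDEE, n = 6). The log2 fold change was 0.16 between WTEE and WTSH (SE 0.14, 95% interval -0.14 to 0.45) and -0.05 between WTEE and KDEE (interval -0.31 to 0.21, adjusted p = 0.97 from edgeR).

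Flt3, the receptor of the dendritic growth factor, had 494, 505, 516, 560.1 and 605 normalized counts in KDSH samples 1, 3, 8, 18 and 24 and 391, 441 and 515 as the lowest, median and highest of KDEE. Zbtb46, a repressor of alternative myeloid fates, had 483, 523, 529.7, 496 and 583 in those KDSH samples and 408, 436 and 546 in KDEE. The groups of both genes overlapped. KDEE against KDSH gave a log2 fold change of -0.25 for Flt3 (SE 0.10, unadjusted p = 0.0191, adjusted p = 0.393 from edgeR) and -0.21 for Zbtb46 (SE 0.08, unadjusted p = 0.0243, adjusted p = 0.396). Between WTEE and WTSH the values were -0.03 (SE 0.11) and -0.10 (SE 0.09).

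Clec9a, the receptor for exposed actin on dead cells, had 22.3, 24.8, 21.7 and 17.04 normalized counts in WTSH samples 2, 5, 19 and 23 and 27.6, 33.7, 28.2, 32.4 and 37.6 in KDSH samples 1, 3, 8, 18 and 24. Every KDSH library was above every WTSH library. The log2 fold change was 0.57 (SE 0.20, unadjusted p = 0.00945, adjusted p = 1 from edgeR; exact two-sided permutation p = 0.00794, the smallest possible), where 0.233% of tested genes had KDSH wholly above WTSH. Of the libraries left out, WTSH sample 4 (58.7, from 15 reads) and KDSH sample 6 (13.8, from 11 reads) went against it. WTSH sample 7 (19.2, from 7 reads) lay within the analysed WTSH libraries. KDEE had 15.5, 24.2 and 30.6 as the lowest, median and highest, and its log2 fold change against KDSH was -0.44 (SE 0.18, unadjusted p = 0.0224, adjusted p = 0.396). Of the Clec9a exon bases 5.59% are shared with Clec1b.

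Itgae varied more within than between groups. Its means were 16.02 ± 6.22 (WTSH, SD, n = 4), 17.9 ± 2.13 (WTEE, n = 6), 18.9 ± 7.24 (KDSH, n = 5) and 19.4 ± 6.49 (KDEE, n = 6) normalized counts, and its groups overlapped in every comparison.

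**Figure D2:**
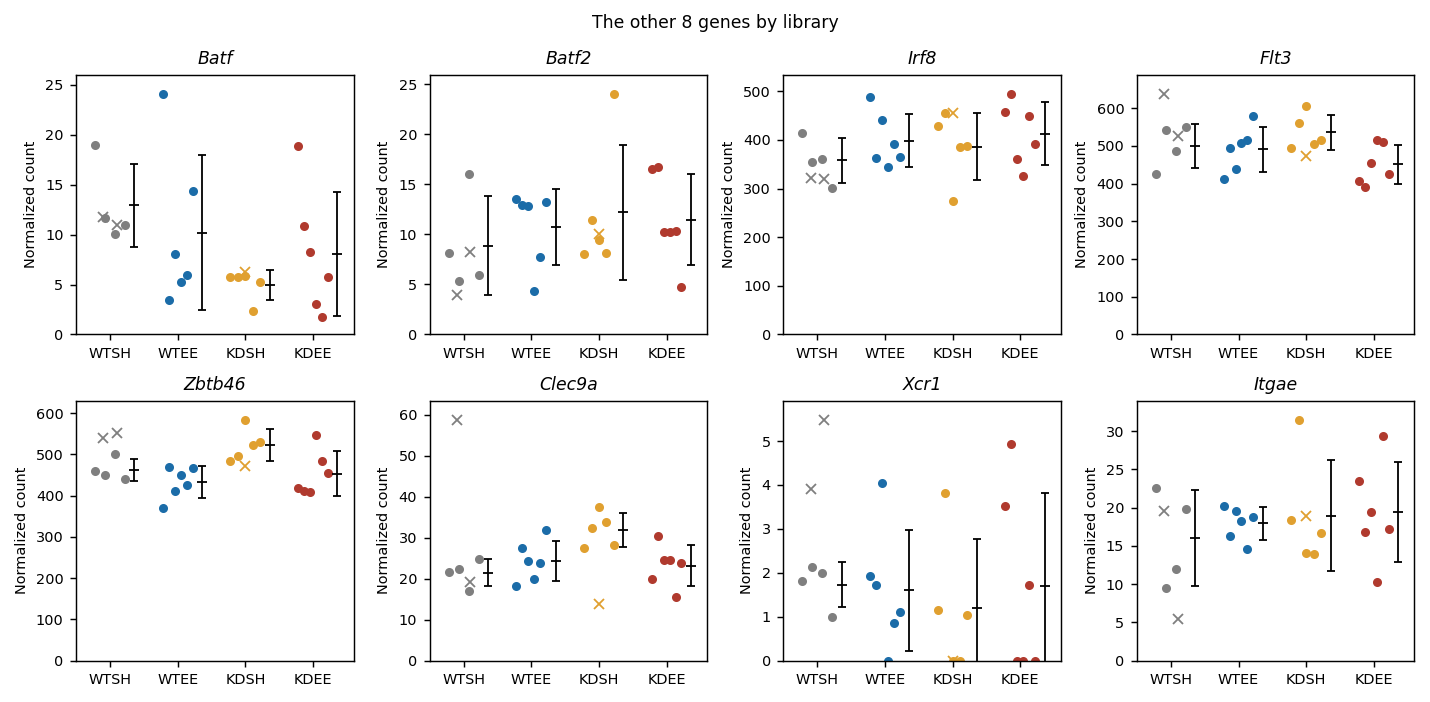
Normalized counts (y axis, from 0) of the other 8 genes in each library of the 4 groups (x axis). Points are libraries, bars are the mean ± SD, and crosses are the libraries left out, scaled with all 24. Among the points KDSH lies below WTSH for Batf and above it for Clec9a, where the crosses at 58.7 and 13.8 go the other way, and Xcr1 stays under 6 in every library.

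Counted over the 8 tested genes other than Batf3, edgeR's quasi-likelihood test called 0 in any of the 5 comparisons at an adjusted p under 0.05 with a log2 fold change beyond 0.38 in size, as it called 0 of 20187 genes (0%). At an unadjusted p under 0.05 and with Batf3 set aside in comparisons that involve WTEE, Irf4 alone stood out between WTEE and WTSH (6.55% of all tested genes) and between WTEE and KDEE (4.99%). Flt3, Zbtb46 and Clec9a did so between KDEE and KDSH, all lower in KDEE (5.98% of tested genes in that direction), and Batf and Clec9a between KDSH and WTSH (1% of tested genes in either direction). For the interaction these were Irf4 and Clec9a, with the enrichment effect more positive in WT (2.29% of tested genes in that direction). The Wald test of DESeq2 called none of the 8 genes other than Batf3 in any comparison, with 2 genes called in all between WTEE and WTSH, 118 between WTEE and KDEE, 14 between KDEE and KDSH, 0 between KDSH and WTSH and 20 for the interaction.

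**Figure D3:**
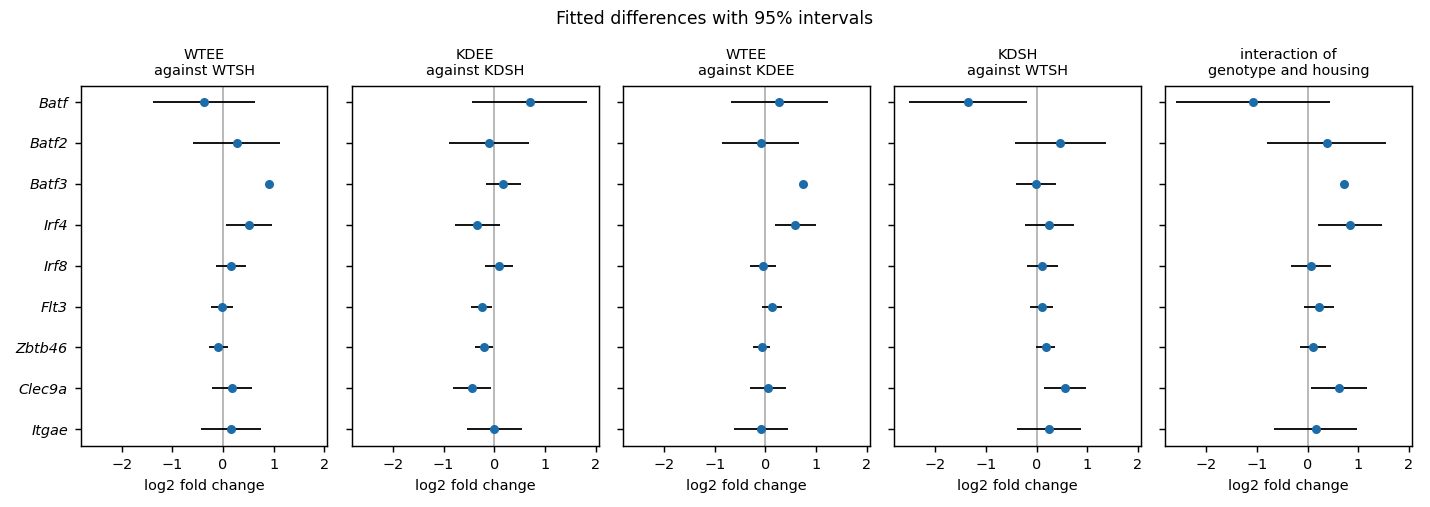
Log2 fold change from edgeR (x axis) of the 9 tested genes (y axis) in the 5 comparisons, with 95% intervals as lines. Batf3 has no interval in the comparisons that involve WTEE, where it is a description. Its intervals in the other comparisons use WTSH and KDEE libraries that also entered its choice. Irf4 lies to the right of 0 in both comparisons of WTEE and in the interaction, and intervals are widest for Batf and Batf2.

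Whether a partner or paralog follows Batf3 between mice was asked within groups, on log2 CPM (counts scaled to the library) after each group's mean was removed, so that group differences do not enter. Over 21 libraries and 8 relations, Zbtb46 had r = -0.47 (permutation p = 0.0421, Spearman's rho -0.34, p = 0.150), the only one under 0.05. Irf8 had r = 0.34 (p = 0.126, rho 0.24, p = 0.322), Irf4 r = 0.28 (p = 0.147, rho 0.31, p = 0.184) and Batf r = 0.25 (p = 0.324, rho 0.13, p = 0.606), all by permutation. Clec9a had r = -0.32 and Flt3 r = -0.25, with permutation p of 0.205 and 0.339, and Itgae and Batf2 had r = -0.06 and -0.03 (permutation p = 0.801 and 0.896). A permutation p under 0.05 was reached by 25.4% of 20186 genes, and 0 of these genes passed after adjustment over all of them; the adjusted values were 0.185 for Zbtb46 and 0.331 for Irf4.

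The relation with Zbtb46 depended on which mice were included. Without samples 10 and 17, the libraries farthest from the median of Batf3, r was -0.28 (permutation p = 0.299), and Irf4 had r = 0.17 (permutation p = 0.46). With each library left out in turn, r of Zbtb46 ranged from -0.61 to -0.31 and missed 0.05 in 10 of the 21 cases, and within WTEE and within KDEE alone r was -0.76 in each (n = 6, exact permutation p = 0.0764 and 0.0819; rho -0.37 and -0.71, exact p = 0.497 and 0.136). With group means kept, Irf4 had r = 0.57, a value that includes the differences between groups. Within the 6 WTEE mice alone Irf4 had r = 0.93 (exact permutation p = 0.0236, adjusted over all genes 0.309; rho 0.54, exact p = 0.297), but 12.7% of all genes reached such a p there, and among the 4 mice other than samples 10 and 17 r was -0.41. Sample 10 had the highest level of both genes in WTEE, 112 for Batf3 and 29.9 for Irf4. Within KDEE Irf4 had r = 0.28 (exact p = 0.596; rho 0.03, exact p = 1).

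**Figure D4:**
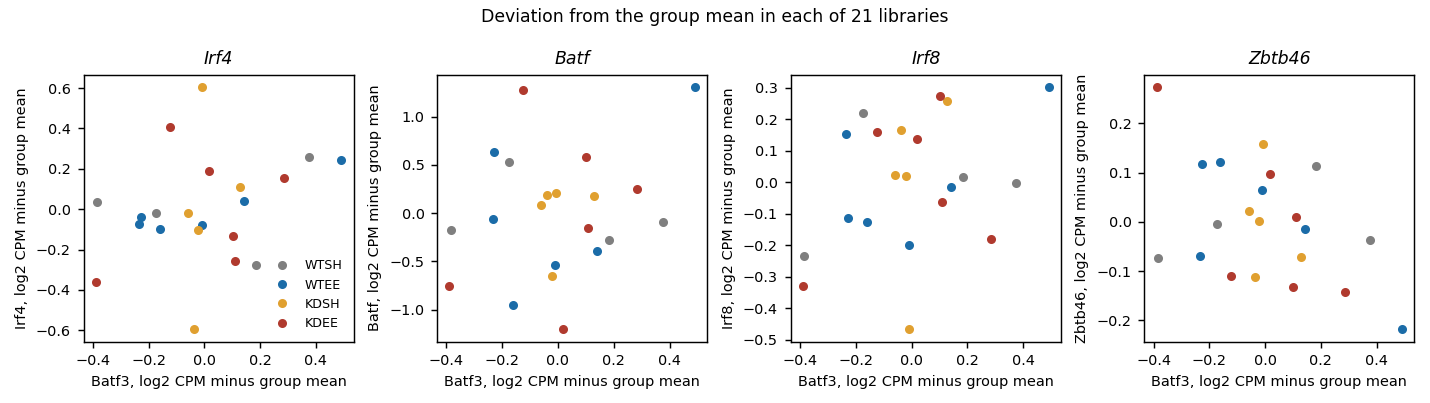
Log2 CPM minus the group mean, of Batf3 (x axis) and of Irf4, Batf, Irf8 and Zbtb46 (y axes), in the 21 libraries, coloured by group. The point at the far right is WTEE sample 10, and Zbtb46 slopes downward with r = -0.47 over all points.

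A fit of every gene on the Batf3 level across the 21 libraries, with the groups in the model, gave a slope at an adjusted p under 0.05 (edgeR) for 1 of 20186 genes (0.00495%), Gsto1, a glutathione transferase (slope 0.54 log2 units per log2 unit of Batf3, adjusted p = 0.0476), and for none of the 8 other tested genes, whose adjusted p lay between 0.196 (Zbtb46) and 0.98 (Batf2). At an unadjusted p under 0.05 there were 29% of all genes and 0 of the 8. The genes most like Batf3 among 17122 compared were Gsto1 (r = 0.88), Btbd6 (0.85), Vps4a (0.84), Pcmt1 (0.83) and Acta1 (0.81). The share of counts on ribosomal RNA gene models had r = 0.46 with Batf3 within groups (permutation p = 0.0726, adjusted over 4 technical measures 0.291, rho 0.33, p = 0.178). Without WTEE 10 and 17, farthest from the median of Batf3, that r was 0.47 (permutation p = 0.166). Without KDEE 9 and WTSH 2, farthest from the median of the share, it was 0.36 (permutation p = 0.0949). That share was 0.385% to 1.39% in WTEE, 0.0355% to 2.57% in WTSH, 0.0491% to 0.555% in KDSH and 0.0353% to 0.873% in KDEE. With it as a covariate the log2 fold change of Batf3 was 0.75 between WTEE and WTSH and 0.59 between WTEE and KDEE, and that of Irf4 was 0.47 and 0.55. Within WTEE alone r of the share with Batf3 was 0.79 (n = 6). The 3 libraries left out, all SH, had the largest shares and 32.9 to 39.2 normalized counts of Batf3. The part of ribosomal RNA in the Batf3 values was not tested beyond these fits.

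The other members were most like genes of other kinds. Irf8 was closest to Cxcl10 (r = 0.89), an interferon-induced chemokine, Vim (0.86) and Cd72 (0.85). Batf was closest to Mdm1 (0.82), Spag8 (0.82) and Cnpy4 (0.81), and Batf2 to Spn (0.75), Gbp6 (0.72) and Trim30a (0.71), of which Gbp6 and Trim30a are interferon-induced. Irf4 had no gene above 0.69 (Cdk15, Gm6204 and Wfdc18, 0.67 to 0.69). Flt3 was closest to Zcchc7, Chn1os3 and Clk4 (0.87 to 0.88), Zbtb46 to Abca8b, Gm2824 and Snhg14 (0.88 to 0.89), Clec9a to Gm26507, A230077H06Rik and Il27ra (0.75 to 0.76) and Itgae to Tmem47, Jam2 and Gm37111 (0.81 to 0.84). These correlations, over 21 libraries and group-centred, chose the genes and carry no test.

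Irf8 followed microglia markers between mice, while Flt3 and Zbtb46 were lower where these markers were higher. Against the mean log2 level of 12 microglia markers, Irf8 had r = 0.70 (permutation p = 0.00254, adjusted over all genes 0.0268; rho 0.66, p = 0.00306), Flt3 r = -0.63 (permutation p = 0.00477, adjusted 0.0365; rho -0.63, p = 0.00514) and Zbtb46 r = -0.72 (permutation p = 0.0008, adjusted 0.017; rho -0.63, p = 0.00346). Without the 2 libraries farthest out r was 0.65, -0.67 and -0.65. Itgae had r = 0.57 with these markers (permutation p = 0.0197, adjusted 0.082; rho 0.53, p = 0.0357), which missed 0.05 after adjustment, and Clec9a r = -0.19 (permutation p = 0.418). These relations were chosen after the values were seen, from 90 between 9 genes and 10 measures of library content, and 34.5% of all genes had a permutation p under 0.05 with the microglia markers. Within the 16 Ttr-poor libraries r was 0.61 for Irf8 (permutation p = 0.0599), -0.47 for Flt3 (p = 0.119) and -0.73 for Zbtb46 (p = 0.00626), by permutation within groups. The endothelial markers, 8 genes, gave r = 0.67 for Irf8, -0.63 for Flt3 and -0.77 for Zbtb46 (permutation p = 0.0033, 0.00548 and 0.00037, adjusted 0.0281, 0.0368 and 0.0112). Itgae had r = 0.55 with them (permutation p = 0.0209, adjusted 0.0804) and Clec9a r = -0.21.

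Flt3 and Irf8 also differed with Ttr, for which no r over all libraries is given because they fall into clusters. Flt3 was at 424 in the Ttr-rich WTSH library against 486 to 552 in the others, at 411 and 439 against 495 to 579 in WTEE, and at 391 and 406 against 427 to 515 in KDEE. Irf8 was at 415 against 302 to 360, at 440.1 and 489 against 344 to 391, and at 457 and 495 against 325 to 450.0 in the same groups. Within each of the 3 groups the Ttr-rich libraries thus had the lowest Flt3 and the highest Irf8. Among the 16 Ttr-poor libraries r with Ttr was 0.04 for Flt3 (permutation p = 0.904) and -0.21 for Irf8 (permutation p = 0.639). The part of choroid plexus, microglia and endothelial content in these levels was not tested further.

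**Figure D5:**
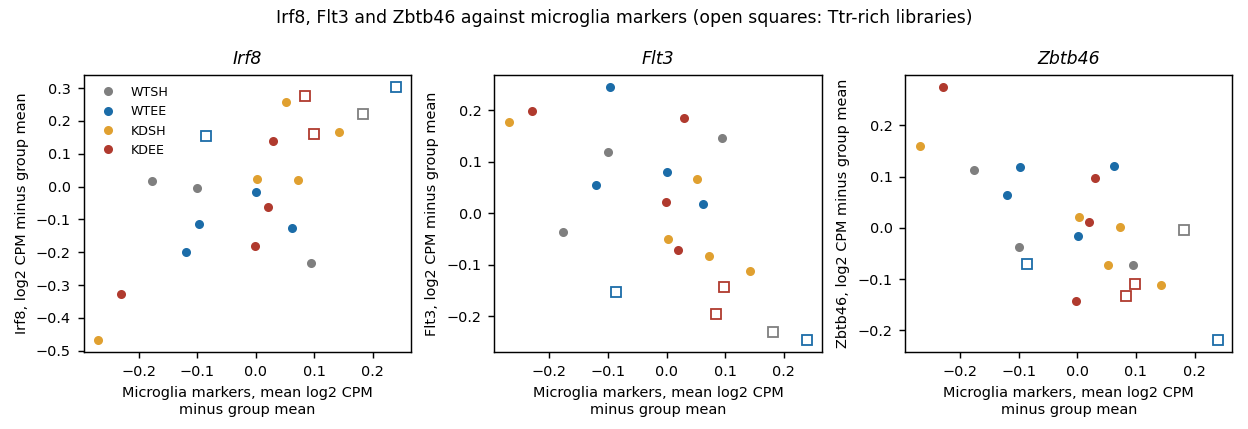
Mean log2 CPM of 12 microglia markers minus the group mean (x axis) against Irf8, Flt3 and Zbtb46 (y axes, log2 CPM minus the group mean) in 21 libraries coloured by group, with Ttr-rich libraries as open squares. Irf8 rises to the right (r = 0.70) and Flt3 and Zbtb46 fall (r = -0.63 and -0.72).

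None of the wider gene lists held a call in edgeR in any comparison, and the numbers at an unadjusted p under 0.05 follow. Over all tested genes that p was reached by 6.55% between WTEE and WTSH and 4.99% between WTEE and KDEE, in either direction. Between KDEE and KDSH 5.64% reached it as higher and 5.98% as lower in KDEE. Of 11 AP-1 and Batf partner genes, 0 did so between WTEE and WTSH or KDEE, and 3 between KDEE and KDSH, Fosb (log2 fold change -0.43, adjusted p = 0.396), Fosl2 (-0.30, adjusted p = 0.417) and Atf3 (0.26, adjusted p = 0.43). Of 14 dendritic cell development factors tested, 1 was higher and 4 were lower in KDEE than in KDSH (5.64% and 5.98% of all genes). Id2, which type 1 dendritic cells need, had a log2 fold change of 0.38 (SE 0.09, adjusted p = 0.338), and the lower ones were Csf2ra (-0.32), a GM-CSF receptor chain, Cbfa2t3 (-0.55), Nfil3 (-0.22) and Flt3l (-0.23), the ligand of FLT3. Relb was higher in WTEE than in WTSH (0.21), and Cebpa and Flt3l were higher in WTEE than in KDEE (0.17 and 0.21). Of the 9 type 1 dendritic markers tested beside the members, Tlr3, the receptor for double-stranded RNA, was 0.32 higher in KDEE than in KDSH on the log2 scale (SE 0.09, adjusted p = 0.338) and Naaa 0.26 higher (SE 0.09, adjusted p = 0.375). Cadm1, Tlr3 and Wdfy4 were lower in WTEE than in KDEE (-0.13, -0.27 and -0.29) and Cadm1 also than in WTSH (-0.15). Group means were 9776 to 10874 normalized counts for Cadm1, 2185 to 2626 for Naaa and 698 to 872 for Tlr3. Those of Wdfy4 were 161 to 197, beside 21.5 to 31.9 for Clec9a. Whether dendritic cells carry the reads of these markers in bulk hippocampus was not tested.

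Other cell lists gave few such genes between WTEE and WTSH, where 6.55% of all tested genes reached that p. In that comparison there was 1 of 9 type 2 dendritic markers (Ltb, 0.61 log2, higher), and 0 of 7 plasmacytoid and 0 of 6 migratory dendritic markers. There was also 1 of 12 microglia markers (Trem2, 0.35, higher) and 1 of 8 border macrophage markers (Ms4a7, 0.92, higher). There were 0 of 4 tested T and NK cell, 8 endothelial, 6 neuron and 8 choroid plexus markers and 0 of 5 ribosomal RNA related gene models. The median log2 fold change of each dendritic list in that comparison lay between -0.08 and 0.17, beside 0.01 over all tested genes. The tested genes of these lists include abundant ones, with WTSH means of 20305 (Sirpa), 22223 (Pacsin1), 11598 (Cacnb3) and 8139 (Fscn1) normalized counts. Tnfsf4, Ly6d, Spib, Klk1, Ccr7, Il4i1 and Apol7c, at most 9 reads in a library, were not tested. These counts and medians thus say little about dendritic cells themselves. Of 5 tested neighbours of Batf3 on chromosome 1, 0 had an unadjusted p under 0.05 between WTEE and WTSH or between WTEE and KDEE, and the nearest, Nsl1, ends 11373 bases before Batf3. Between KDEE and KDSH 4 of the 5 had one, beside 5.64% of all tested genes higher and 5.98% lower in KDEE. Nsl1 (log2 fold change 0.46), Vash2 (0.39) and Atf3 (0.26) were higher and Tatdn3 (-0.25) lower in KDEE. Their adjusted p from edgeR lay between 0.35 and 0.43, and 0 were called.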

How the data were processed

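RNA of single hippocampi was sequenced as poly(A) TruSeq v2 libraries, without strand with paired reads on an Illumina machine. Before the files were deposited the authors trimmed reads with Skewer, checked them with FastQC 0.11.3, aligned them to GRCm38 with STAR 2.5 and counted unique alignments per gene with HTSeq 0.6.1p1. Each deposited file gives the raw read-pair counts of its library by gene symbol, with no normalization. Read pairs not assigned to a single gene (13.1% to 21.3% per analysed library) were left out of library sizes. PCR copies cannot be told apart, so counting errors and the floor of 3 counts cover counting error only.

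Groups came from the labels. The 10 genes, the gene lists and the tests were chosen with earlier results of these data known. Counts were normalized by TMM and tested in edgeR 4.0.16 (R 4.3.3) with the quasi-likelihood test on all 4 groups in 1 model, after filterByExpr at its defaults, which kept 20187 genes. Standard errors were derived from the F statistic. Calls needed a p under 0.05 after Benjamini-Hochberg adjustment and a log2 fold change beyond 0.38 in size (no fold threshold for the interaction). Single genes were compared by exact two-sided permutation. Correlations used log2 CPM with a prior count of 2, 100000 two-sided permutations within groups (smallest p 1e-05) and adjustment over all genes, and within 1 group all orders of 6 libraries. Positions, exon lengths for FPKM and overlaps came from GENCODE M21, with 47139 symbols matched to 1 gene; promoter windows, found for 8 of the 10 genes, came from RefSeq. Named genes are the 10, members of the lists, for each tested gene the 3 (Batf3: 5) most correlated genes with a mean of at least 20 normalized counts, and sets of up to 5 calls. On simulated counts for WTEE against WTSH, edgeR recovered 176 of 200 changed genes (88%) with 4 false calls among 19893 genes. For a simulated slope of 1 on Batf3 it recovered 132 of 200 (66%) with 8 false calls among 19939. All changed genes had a mean of at least 20 counts, and the fitted group changes had a median log2 size of 1.02. Smaller changes, and genes as low as Batf, Batf2 and Itgae, were not simulated as changed.

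Alternatives were DESeq2 1.42.0, RLE size factors, no filter or at least 10 counts in every library, all 24 libraries, a robust fit, the ribosomal RNA share as a covariate, no fold threshold and each library left out, and for correlations log2(count + 1), Spearman's rho, group means kept and residuals on that share. Relations with cell markers and their alternatives were added after the data were seen. The assignment of libraries to sequencing lanes was not given in the sources used here, so lane and group cannot be told apart.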

Additional observations from a re-analysis of the deposited data

Results flagged for a closer look

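Over 40 groups of values (10 genes in 4 groups), 5 held a library farther from the others than chance gives in about 1 of 20 such groups. In KDSH these were sample 3 as the lowest for Batf (2.33 normalized counts), sample 8 as the highest for Batf2 (24.03), and sample 18 as the highest for Batf3 (46.7) and for Itgae (31.4). In WTEE sample 10 was the highest for Irf4 (29.9), and without it the other 5 WTEE libraries lay between 23.2 and 25.7.

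Among the libraries left out by the study, 8 values on more than 3 reads lay above the analysed libraries of their own group, on the scale of all 24 libraries. WTSH sample 4 had 23.5 normalized counts of Irf4, 638 of Flt3, 540.4 of Zbtb46 and 58.7 of Clec9a. WTSH sample 7 had 24.6 of Irf4 and 550.4 of Zbtb46. KDSH sample 6 had 6.29 of Batf and 455 of Irf8. In WTSH the values of Irf4 rest on 6 and 9 reads, and the part that ribosomal RNA in these libraries has in these values was not tested.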

How the results depend on the processing

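No member was called in edgeR in any of the 5 comparisons under RLE size factors, either filter, the robust fit, the ribosomal RNA covariate, no fold threshold or with any 1 library left out. Batf3, by which the set was chosen, was called (1 gene) for WTEE against WTSH with all 24 libraries and with DESeq2, and (1 gene) for WTEE against KDEE with DESeq2; the cause was not tested. No paired analysis was possible because each mouse number belongs to a single group and is not shared with another.

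The number of members that followed Batf3 at a permutation p under 0.05 was 1 (Zbtb46, inversely), 0 with log2(count + 1), with Spearman's rho, without the 2 libraries farthest from the median and on residuals of the ribosomal RNA share, 2 with group means kept, and 0 to 2 with 1 library left out. It became 0 without KDSH 18, KDEE 14 or 20, WTSH 2, or WTEE 10, 11, 16, 17 or 21, and 2 without WTSH 23. Irf8 had its lowest permutation p, 0.0445, without KDEE 15 (r = 0.43). For Irf8 and Flt3 the relations with microglia and endothelial markers missed 0.05 without the 5 Ttr-rich libraries (endothelial r = 0.53 and -0.35).

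The values whose sign turned follow, none of which was called. With all 24 libraries log2 fold changes were -0.0605 (Clec9a, WTEE against WTSH), 0.00273 (Itgae, KDEE against KDSH; 0.00157 without the filter), 0.0185 (Batf3) and -0.00647 (Flt3) for KDSH against WTSH, and -0.00131 (Zbtb46, interaction), and r of Itgae with Batf3 was 0.0817 (0.0223 with group means kept). With the ribosomal RNA share as a covariate they were 0.0570 (Batf2, WTEE against KDEE) and -0.0159 (Irf8, interaction), and on residuals r with Batf3 was 0.0298 for Batf2 and 0.0125 for Itgae.

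With 1 library left out, log2 fold changes for WTEE against KDEE ranged from -0.181 to 0.675 (Batf), -0.259 to 0.0668 (Batf2), -0.0374 to 0.148 (Clec9a), -0.117 to 0.0162 (Irf8) and -0.218 to 0.0456 (Itgae). For WTEE against WTSH they were -0.0978 to 0.0229 (Flt3) and -0.0241 to 0.371 (Itgae), for KDEE against KDSH -0.251 to 0.295 (Batf2), -0.00498 to 0.162 (Irf8) and -0.135 to 0.267 (Itgae), for KDSH against WTSH -0.133 to 0.125 (Batf3) and -0.0278 to 0.458 (Itgae), and for the interaction -0.0262 to 0.803 (Batf2), -0.0183 to 0.161 (Irf8) and -0.113 to 0.369 (Itgae). Likewise r with Batf3 ranged from -0.00820 to 0.367 (Batf), -0.146 to 0.0793 (Batf2) and -0.342 to 0.131 (Itgae). Genes under about 30 counts a library (Batf, Batf2, Irf4, Clec9a, Itgae, Xcr1) are limited by counting error.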
